A study of Mus musculus with 7 samples.

Results

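The genes described here are the cannabinoid receptor CB1 and 4 genes whose proteins bind its intracellular tail: Cnr1, the receptor itself, Cnrip1, Sgip1, Arrb1 and Arrb2. They were chosen by symbol, through the identifiers of the deposited tables, and make up 5 of 22248 genes and 44 of 102392 transcripts. Messenger RNA was measured in hippocampal synaptoneurosomes, a brain fraction of severed nerve endings, many still joined to the postsynaptic side. All mice were wild-type C57Bl/6J females. One group received AM6545 over a sub-chronic course (4 libraries, replicates B, D, E and F) and the other received vehicle (3 libraries, replicates B, D and E). AM6545 is a CB1 antagonist that enters the brain poorly. The labels state neither the age of the mice nor the dose, nor whether each library came from a separate animal, so p-values measure only the spread between these libraries.

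CB1 is a receptor coupled to Gi/o proteins that sits mainly on axon terminals, where endocannabinoids released by the postsynaptic cell reduce transmitter release. Its intracellular tail decides how long it signals and whether it is taken up. After the tail is phosphorylated, the beta-arrestins encoded by Arrb1 and Arrb2 bind it, uncouple the G protein and lead the receptor to clathrin-coated pits. Cnrip1 encodes a small protein that binds the end of the tail and modulates signalling. Sgip1 encodes an endocytic adaptor of nerve endings that binds the tail and slows internalization of the receptor. In the hippocampus CB1 is densest on terminals of cholecystokinin interneurons, with a lower density on glutamatergic terminals.

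The end of the receptor's coding sequence encodes the tail on which the other 4 products act, so it is shown first. It is the last 90 coding bases of Cnr1-201 (coding bases 1333 to 1422), at chr4:33944946-33945035 of GRCm38, plus strand, with the stop codon in capitals.
Cnr1 coding end: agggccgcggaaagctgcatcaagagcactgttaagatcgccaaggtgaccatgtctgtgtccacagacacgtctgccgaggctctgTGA
Transcripts of the partners differ in short coding stretches, and 3 of these are shown because the transcript values below are split by them. Capitals mark the stretch that the other transcript lacks, and 12 coding bases on each side are in lower case.
Arrb1-202, absent from Arrb1-201: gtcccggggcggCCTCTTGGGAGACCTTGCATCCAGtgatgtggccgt
Arrb2-205, absent from Arrb2-204: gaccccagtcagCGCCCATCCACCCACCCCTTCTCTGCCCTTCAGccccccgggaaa
Sgip1-205, absent from Sgip1-203: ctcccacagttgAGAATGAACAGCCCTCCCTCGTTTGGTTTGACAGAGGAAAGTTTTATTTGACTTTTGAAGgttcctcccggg
The stretches hold 24 bases at chr7:99597036-99597059, 33 bases at chr11:70439818-70439850 and 60 bases at chr4:102934546-102934605, all on the plus strand of GRCm38.

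Library totals ran from 19174649 estimated counts (Vehicle replicate E) to 25894733 (Vehicle replicate B). Counts of mitochondrial genes took 5.07% to 6.66% of the AM6545 libraries and 9.83%, 6.38% and 6.11% of Vehicle replicates B, D and E. Each of the 5 genes was well covered: Cnr1 had 1599 to 2918 estimated counts per library, Cnrip1 2434 to 4202, Sgip1 1557 to 2598, Arrb1 1104 to 2057 and Arrb2 678 to 1073. All 5 passed the filter on low counts, which kept 14654 genes. None of the 8 lists of cell type markers had a gene at 0. The synaptic marker list (Syn1, Syp, Snap25, Camk2a, Dlg4, Slc17a7, Gad1 and Gad2) summed to 8799 to 8899 CPM (counts scaled to a common library size) in the AM6545 libraries and 8225 to 8405 in the Vehicle libraries, without overlap. Most of that gap was Snap25, at 3720 ± 181 (SD, n = 4) against 3209 ± 63.9 (SD, n = 3), while Camk2a, Slc17a7 and Dlg4 were lower in AM6545, and only Dlg4 (log2 fold change -0.52) had an unadjusted p under 0.05.

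In synaptoneurosomes of mice given AM6545, the levels of Cnr1, Cnrip1, Sgip1 and Arrb2 overlapped between the groups, with means of Cnrip1 and Sgip1 above and those of Cnr1 and Arrb2 within the range of the Vehicle libraries. Arrb1 was the 1 gene whose groups did not overlap in CPM, lower in all 4 AM6545 libraries. On the length-scaled levels given further below, the groups of Arrb1 overlapped. None of the 5 genes passed an adjusted p of 0.05 by edgeR's quasi-likelihood test, at which 0.00682% of the 14654 genes tested (1 gene) did. At an unadjusted p under 0.05, 1 of the 5 (Arrb1) was called, against 14.6% of all genes. Values below are TMM-scaled CPM unless another scale is named, the number after ± is the SD over the libraries of a group (n = 4 for AM6545 and n = 3 for Vehicle), and fold changes are log2 of AM6545 over Vehicle.

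**Figure D1:**
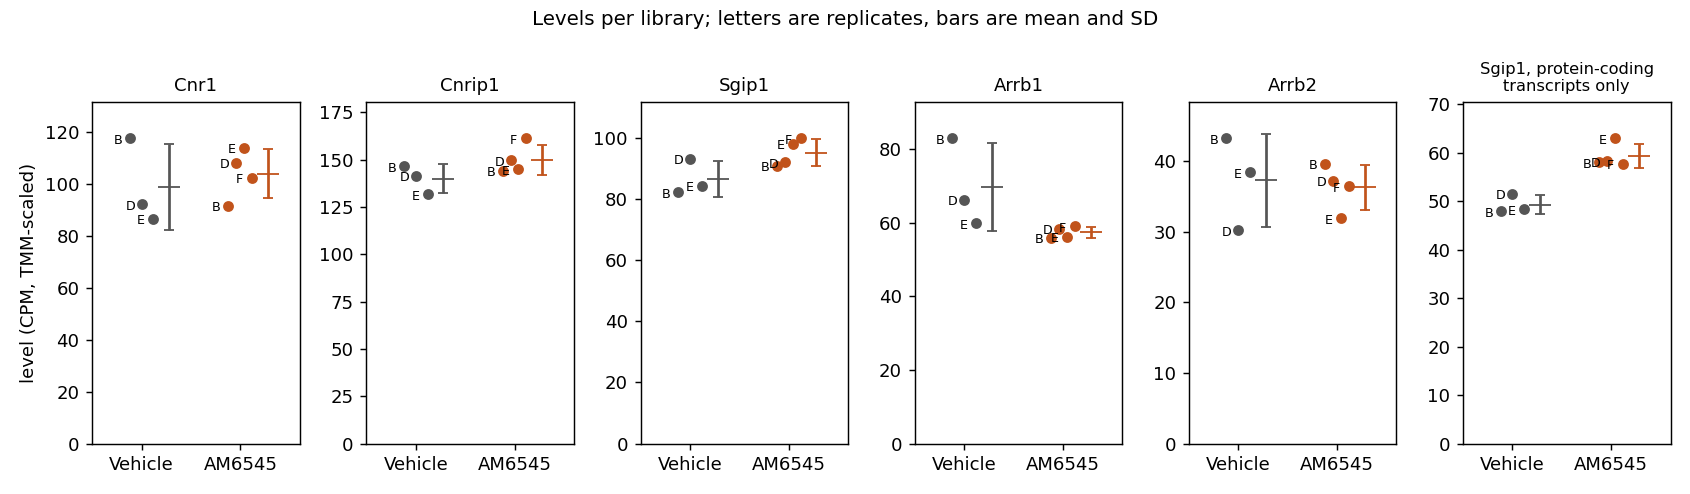
Levels of Cnr1, Cnrip1, Sgip1, Arrb1 and Arrb2, and of Sgip1 from its protein-coding transcripts only, in CPM (vertical axis, from 0) for each library of the Vehicle and AM6545 groups (horizontal axis). Points are libraries with their replicate letters, and bars are the mean and SD of 3 Vehicle and 4 AM6545 libraries; the Arrb1 points of AM6545 (55.8 to 58.9) all lie below the Vehicle points (59.7 to 82.8).

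Cnr1 (chr4:33924593-33948831, plus strand) encodes CB1, the target of AM6545. Its level was 91.5, 108.0, 113.9 and 102.3 CPM in AM6545 replicates B, D, E and F, and 117.5, 92.2 and 86.5 CPM in Vehicle replicates B, D and E. The highest value was that of Vehicle replicate B and the lowest that of Vehicle replicate E, so the Vehicle libraries enclosed all AM6545 libraries. Means were 103.9 ± 9.55 and 98.7 ± 16.5. The log2 fold change was 0.07 (SE 0.12, 95% interval -0.19 to 0.34, edgeR adjusted p = 0.797), against a median of 0.01 over all genes tested. Without Vehicle replicate E it was -0.01, and without Vehicle replicate B it was 0.22 (edgeR adjusted p from 0.719 to 0.962 over the libraries left out).

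The list of 6 markers of cholecystokinin interneurons (Cck, Slc17a8, Htr3a, Vip, Npas1 and Sncg) summed to 309.9 to 364.8 CPM in AM6545 and 381.8 to 495.0 CPM in Vehicle, without overlap. Of these 6 markers 5 were lower in AM6545, as were 48.6% of all genes, and 1 had an unadjusted p under 0.05 (14.6% of all genes), Cck itself, at 267.2 ± 23.3 against 355.7 ± 55.3. The gap in the sum was almost wholly that of Cck, since the other 5 markers had log2 fold changes between -0.14 and 0.09. The list of other interneurons (Pvalb, Sst and Npy) summed to 264.7 to 296.9 CPM in AM6545 and 310.6 to 462.8 CPM in Vehicle, with 3 of 3 lower (48.6% of all genes). Sst (log2 fold change -0.41) and Npy (-0.42) had an unadjusted p under 0.05, and Pvalb (-0.35) did not. Gad1 (0.29) and Gad2 (0.12), GABA neuron genes counted in the synaptic list, went the other way. Both were higher in AM6545 with overlapping groups, and neither had an unadjusted p under 0.05. The summed lists of astrocytes, oligodendrocytes, microglia, endothelial cells and choroid plexus overlapped between the groups. The choroid plexus sum varied widely, from 406.4 to 1928.1 CPM in AM6545 and from 1543.7 to 2734.2 CPM in Vehicle. All 4 of its markers were lower in AM6545, with 0 at an unadjusted p under 0.05. In the microglial list, 4 of 7 markers were at an unadjusted p under 0.05 and lower in AM6545 without overlap: Tyrobp (log2 fold change -0.65), C1qa (-0.47), C1qb (-0.45) and C1qc (-0.46). Csf1r (-0.04), Cx3cr1 (0.04) and P2ry12 (0.07) were not. Of 6 astrocyte markers Slc1a2 (-0.45) was, also without overlap. Among all genes, 8.7% were lower at an unadjusted p under 0.05, and 13.8% had groups that did not overlap. In bulk material, less material from a cell type and less of an RNA within that material cannot be told apart. The part of these markers in the values of the 5 genes was not tested.

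Cnrip1 (chr11:17051586-17079371, plus strand) encodes the cannabinoid receptor interacting protein. It measured 144.3, 149.7, 144.9 and 161.3 CPM in AM6545 replicates B, D, E and F and 146.6, 141.6 and 131.7 CPM in Vehicle replicates B, D and E. Vehicle replicate B lay above 2 of the AM6545 libraries, so the groups overlapped. With means of 150.0 ± 7.86 and 140.0 ± 7.59, the log2 fold change was 0.10 (SE 0.09, 95% interval -0.10 to 0.30, edgeR adjusted p = 0.618).

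Sgip1 (chr4:102741297-102973628, plus strand) encodes the endocytic adaptor. Its level was 90.8, 91.9, 98.0 and 99.7 CPM in AM6545 replicates B, D, E and F, and 82.2, 93.0 and 84.3 CPM in Vehicle replicates B, D and E. Only Vehicle replicate D reached the range of the AM6545 libraries. Means were 95.1 ± 4.42 and 86.5 ± 5.77, a log2 fold change of 0.14 (SE 0.09, 95% interval -0.07 to 0.34, edgeR adjusted p = 0.5004).

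Arrb1 (chr7:99535466-99606771, plus strand) encodes beta-arrestin 1. It measured 55.8, 58.3, 56.2 and 58.9 CPM in AM6545 replicates B, D, E and F, and 82.8, 66.2 and 59.7 CPM in Vehicle replicates B, D and E. The AM6545 libraries lay close together and below every Vehicle library, while the Vehicle libraries were spread over a wide range with replicate B highest. Among all genes tested, 13.8% had groups that did not overlap. Means were 57.3 ± 1.54 and 69.6 ± 11.9, a log2 fold change of -0.28 (SE 0.11, 95% interval -0.53 to -0.03, edgeR adjusted p = 0.303). Without Vehicle replicate B, which also had the highest mitochondrial share and the highest interneuron sums, the log2 fold change was -0.13 (edgeR adjusted p = 0.856). Without Vehicle replicate E it was -0.38. Over the libraries left out, the edgeR adjusted p for Arrb1 ran from 0.0565 to 0.856.

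Arrb2 (chr11:70432635-70440828, plus strand) encodes beta-arrestin 2. Its level was 39.6, 37.2, 31.9 and 36.5 CPM in AM6545 replicates B, D, E and F, and 43.2, 30.2 and 38.4 CPM in Vehicle replicates B, D and E. The Vehicle libraries again enclosed the AM6545 libraries. Means were 36.3 ± 3.21 and 37.3 ± 6.58, with a log2 fold change of -0.04 (SE 0.13, 95% interval -0.32 to 0.24, edgeR adjusted p = 0.905). The sign was positive under scaling by total counts (0.0024), in the limma-voom fit (0.17) and after correction for GC content and length (0.10), so no direction is given for this gene.

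**Figure D2:**
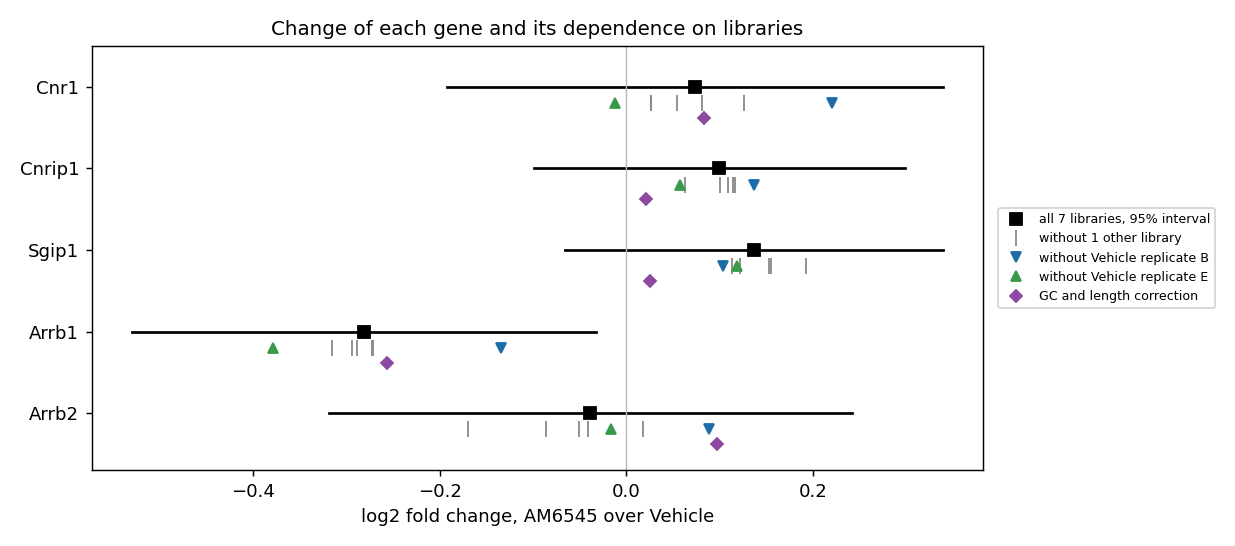
Log2 fold change of AM6545 over Vehicle (horizontal axis) for each of the 5 genes, with the 95% interval of the edgeR fit on all 7 libraries (squares and lines), the values without each library in turn and the value after correction for GC content and length. Only the interval of Arrb1 (-0.53 to -0.03) lies on 1 side of 0, and its value without Vehicle replicate B is -0.13.

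Fold changes across the whole table ran with base composition, from a median log2 fold change of 0.13 in the fifth of genes with the lowest GC content to -0.13 in the fifth with the highest. The GC content of the 5 genes was 50.4% for Cnr1, 48.9% for Cnrip1, 47.8% for Sgip1, 55.4% for Arrb1 and 56.7% for Arrb2, beside a median of 50.9%. After correction for GC content and length, Arrb1 stood at -0.26 and Cnr1 at 0.08, close to their uncorrected values. Cnrip1 moved to 0.02 and Sgip1 to 0.03. The correlation of Arrb1 with other genes was wide: over the 7 libraries, 874 of 9431 genes had a Pearson r over 0.9 with it, against 40 for Cnr1, 24 for Cnrip1, 121 for Sgip1 and 22 for Arrb2.

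The transcript table adds which forms of each gene were present. Of the 44 transcripts, 9 were at 0 in every library and 15 passed the filter on low counts. None of these 15 passed an adjusted p of 0.05 by edgeR, at which 0.0177% of 33962 transcripts did, and 1 had an unadjusted p under 0.05, against 8.39%. One of the 15 had groups that did not overlap (Arrb1-202), against 10.8% of all transcripts tested. A test of the mix of transcripts within each gene (edgeR diffSpliceDGE) called none of the 4 genes it could be run on, against 0.725% of 8692 genes. The smallest unadjusted p among them was 0.311, for Sgip1, and 3.93% of genes were under 0.05.

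Cnr1 was almost wholly 1 transcript. Cnr1-201 took 98.5% ± 0.95 of its counts in AM6545 and 99.2% ± 0.66 in Vehicle. Cnr1-202, which begins elsewhere but has the same 1422 coding bases, took 2.17%, 0.95%, 0.38% and 2.39% in AM6545 replicates B, D, E and F and 0.90%, 1.28% and 0.00% in Vehicle replicates B, D and E. The groups overlapped, and at these low counts the edgeR interval for Cnr1-202 ran from -1.72 to 3.67 on the log2 scale.

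Cnrip1 was likewise mostly 1 transcript, Cnrip1-201, with 96.5% ± 0.21 of its counts in AM6545 and 95.7% ± 0.67 in Vehicle. Its level was 145.3 ± 6.82 CPM in AM6545 and 133.9 ± 8.56 CPM in Vehicle. A form with a retained intron, Cnrip1-203, made up most of the rest, at 3.17% ± 0.22 against 4.02% ± 0.57. Its shares reached 3.36% in AM6545 and began at 3.37% in Vehicle, just short of overlap, while in CPM its groups overlapped. Of the 31-base words of Cnrip1-201, 8.50% also occur in Plek, whose exons on the opposite strand overlap 4.97% of the exonic bases of Cnrip1. The use of strand in counting is not given in the sources used here, so reads of these bases could count for either gene.

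Sgip1 had the most even mix of transcripts. The largest share was that of Sgip1-212, annotated as a processed transcript without a coding sequence, with 38.6%, 38.7%, 38.3% and 44.4% in AM6545 replicates B, D, E and F and 43.9%, 46.6% and 44.2% in Vehicle replicates B, D and E. AM6545 replicate F lay among the Vehicle libraries and the other 3 AM6545 libraries lay below them. In CPM, Sgip1-212 was at 38.2 ± 4.14 and 38.9 ± 4.16. Of its 31-base words, 25.4% also occur in transcripts of 33 other genes, so its counts, and the shares of the other transcripts, are uncertain.

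Of the 6 protein-coding transcripts of Sgip1, Sgip1-201, Sgip1-202, Sgip1-203 and Sgip1-205 are compared here. A stretch of 498 bases (chr4:102921022-102921519) is found in Sgip1-205 and Sgip1-203 but not in Sgip1-201 and Sgip1-202. So are 3 further coding bases (chr4:102863662-102863664). They also differ by the 60-base stretch printed above. Sgip1-205, with both the 498-base and the 60-base stretch, was the 1 transcript with an unadjusted p under 0.05. Its level was 17.9, 19.1, 22.8 and 21.2 CPM in AM6545 replicates B, D, E and F and 15.5, 18.4 and 13.1 CPM in Vehicle replicates B, D and E, and Vehicle replicate D lay above AM6545 replicate B. The log2 fold change was 0.37 (SE 0.15, edgeR adjusted p = 0.577). Sgip1-201, with the 60-base stretch alone, was at 21.2 ± 1.14 CPM and 22.1 ± 2.11 CPM, and Sgip1-202, with neither, at 9.22 ± 2.10 and 6.81 ± 2.60 CPM. Among Sgip1-201, Sgip1-202, Sgip1-203 and Sgip1-205, those with the 498-base stretch took 48.4%, 39.7%, 51.4% and 41.7% in AM6545 replicates B, D, E and F. In Vehicle replicates B, D and E they took 34.4%, 39.8% and 38.2%. Only Vehicle replicate D, at 39.8%, lay within the AM6545 range, just above AM6545 replicate D. This share includes Sgip1-203, which varied widely, at 8.71, 2.38, 7.82 and 1.42 CPM in AM6545 replicates B, D, E and F. In Vehicle replicates B, D and E, Sgip1-203 was at 0, 1.06 and 4.12 CPM. Its groups overlapped, and its edgeR interval ran from -1.64 to 4.78 on the log2 scale, so the share is uncertain.

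When only protein-coding transcripts were summed, a choice made after seeing the share of Sgip1-212, Sgip1 measured 58.1, 58.3, 63.0 and 57.8 CPM in AM6545 replicates B, D, E and F and 48.0, 51.6 and 48.4 CPM in Vehicle replicates B, D and E. The groups then did not overlap, as was so for 13.4% of all genes on this count. The log2 fold change was 0.27 (SE 0.09, 95% interval 0.07 to 0.47, edgeR adjusted p = 0.296), and 13.5% of all genes had an unadjusted p under 0.05. The coding share of Sgip1 was 59.3% ± 2.91 in AM6545 and 54.0% ± 1.30 in Vehicle.

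**Figure D3:**
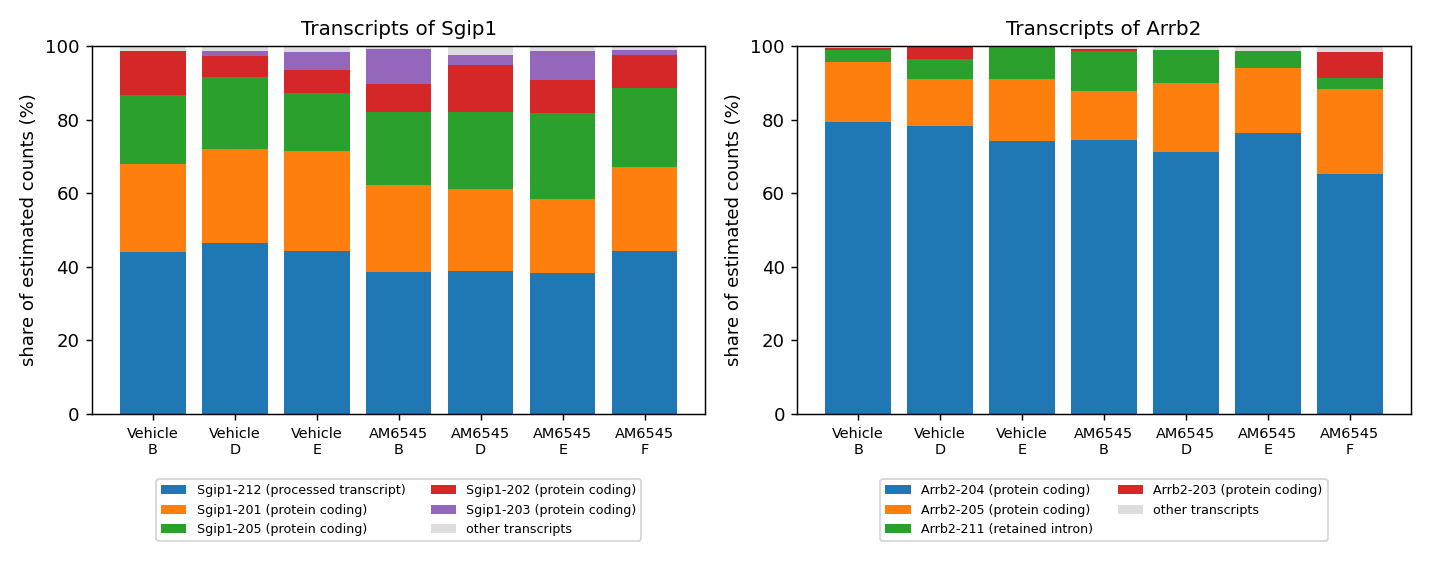
Share of the estimated counts of Sgip1 (left) and Arrb2 (right) assigned to each transcript, in percent (vertical axis), in each Vehicle and AM6545 library (horizontal axis). Sgip1-212 takes 38.3% to 46.6% of Sgip1, and Arrb2-204 takes 65.3% to 79.3% of Arrb2.

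The 2 arrestins differed in their transcripts. Counts of Arrb1 were assigned to Arrb1-202, the form with the 24-base stretch printed above, with at least 99.8% in every library. Arrb1-201, which lacks it, was at 0 in all 7 libraries. Of the 10352 counts of the gene, 3 counts would be 0.0290%. Only reads over bases that differ can tell the forms apart, so the share that a count of 0 allows is larger and was not computed. Arrb1-210, with 7135 bases against 7132 for Arrb1-202, was also at 0. Arrb1-202 was at 57.4 ± 1.37 CPM in AM6545 and 69.6 ± 12.3 CPM in Vehicle, with a log2 fold change of -0.28 (edgeR adjusted p = 0.600).

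Arrb2 was mostly Arrb2-204, at 74.4%, 71.2%, 76.2% and 65.3% in AM6545 replicates B, D, E and F and 79.3%, 78.1% and 74.0% in Vehicle replicates B, D and E. AM6545 replicate F was lowest and the groups overlapped. Arrb2-205, with the 33-base stretch, took 20.2% ± 4.45 of the sum of both in AM6545 and 16.6% ± 2.37 in Vehicle. A form with a retained intron, Arrb2-211, took 6.88% ± 3.61 and 5.99% ± 2.76. Over 1206 aligned coding bases Arrb1-202 and Arrb2-204 were 73.3% identical, and they shared no 31-base word.

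Levels of different genes can be compared only per length, so TPM values (counts per base of transcript, scaled to a common sum) were computed from the transcript counts and annotated lengths. On this scale the order was Cnrip1, Sgip1, Arrb2, Cnr1 and Arrb1. Cnrip1 was at 177.7 ± 9.58 TPM in AM6545 and 152.5 ± 11.6 TPM in Vehicle, above 93.1% of the 14633 genes tested that have a length. Sgip1 followed at 59.7 ± 3.71 and 52.8 ± 7.88 TPM, and Arrb2 at 45.3 ± 5.33 and 41.3 ± 4.65 TPM. The receptor itself, Cnr1, was at 35.4 ± 3.77 TPM in AM6545 and 30.8 ± 3.19 TPM in Vehicle. Arrb1 was lowest at 15.9 ± 0.63 and 17.6 ± 2.07 TPM, near the middle of all genes (above 54.4% of them).

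Cnrip1 lay above Sgip1 by 2.95 times in the mean ratio over the 7 libraries, and Cnr1 lay above Arrb1 by 2.02 times, and neither pair of ranges overlapped. The ranges of Sgip1 and Arrb2 did overlap, although Sgip1 was higher in 7 of 7 libraries. Those of Arrb2 and Cnr1 overlapped as well, with Arrb2 higher in 6 of 7. The place of Sgip1 rested on the short transcript Sgip1-212: from protein-coding transcripts alone, Sgip1 was at 26.1 ± 1.32 TPM in AM6545 and 19.99 ± 2.58 TPM in Vehicle, below Cnr1 at 37.6 ± 3.99 and 32.7 ± 3.39 TPM. On the TPM scale the groups of Cnrip1 did not overlap (167.9 to 190.8 against 145.2 to 165.9), as was so for 15.2% of genes, whereas in CPM they did. The reverse held for Arrb1, whose groups overlapped in TPM (15.1 to 16.4 in AM6545 against 15.4 to 19.4 in Vehicle) but not in CPM.

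**Figure D4:**
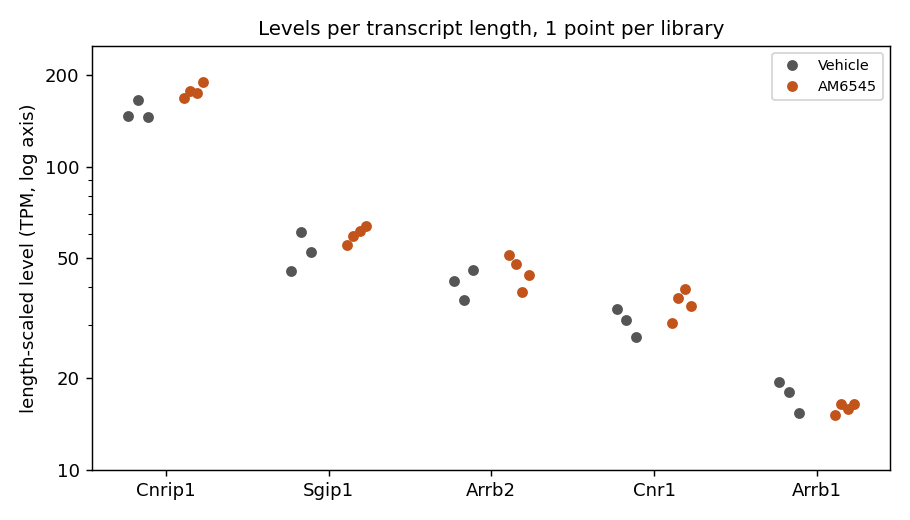
Length-scaled levels in TPM (vertical axis, log scale) of the 5 genes in order of their mean (horizontal axis), 1 point per library, Vehicle and AM6545 side by side. Cnrip1 is highest (145.2 to 190.8) and Arrb1 lowest (15.1 to 19.4), and the points of Sgip1 and Arrb2, and of Arrb2 and Cnr1, overlap.

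Ratios within a library are free of library scaling and compare each partner with the receptor. The messenger RNA of Cnrip1 stood at 5.06 ± 0.53 times that of Cnr1 per length in AM6545 and 4.98 ± 0.57 times in Vehicle. For Sgip1 the ratio was 1.70 ± 0.14 and 1.73 ± 0.35. This Sgip1 ratio and its p below count all transcripts, including the short form without a coding sequence that took the largest share. From protein-coding transcripts alone, the mean level of Sgip1 per length was below that of Cnr1 in AM6545 and in Vehicle. For both arrestins together the ratio to Cnr1 was 1.76 ± 0.32 and 1.93 ± 0.25. Arrb1 stood at 0.36 ± 0.05 times Arrb2 in AM6545 and 0.43 ± 0.08 times in Vehicle. All 4 ratios overlapped between groups. By exact permutation, two-sided over the 35 ways to assign 4 of 7 libraries to AM6545, where the smallest possible p is 0.0286, p was 0.8 for Cnrip1 to Cnr1, 0.971 for Sgip1 to Cnr1, 0.2 for Arrb1 to Arrb2 and 0.314 for the arrestins to Cnr1. Adjusted over the 4 ratios, the smallest of these exact p-values was 0.629.

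The genes around the receptor were read from 7 lists, chosen with earlier results of these data known. Of their 93 genes 90 were tested: 47 were higher and 43 lower in AM6545, with a median log2 fold change of 0.03 beside 0.01 for all genes. No gene of the lists passed an adjusted p of 0.05 by edgeR. At an unadjusted p under 0.05 there were 18 of 90 (20%), of which 11 were higher (5.86% of all genes) and 7 lower (8.7% of all genes). Other tools or libraries left out raised the adjusted count to at most 9, which was reached without Vehicle replicate E.

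Among 14 tested of 16 other partners and regulators of CB1, 10 were higher and 4 lower, with a median log2 fold change of 0.16. At an unadjusted p under 0.05 were 4 of the 14, against 14.6% of all genes, and all 4 belong to the WAVE complex, an actin regulator reported to bind CB1. The list holds 7 members of that complex, and the other 3 were not called: Cyfip1 (0.25), Cyfip2 (0.04) and Brk1 (-0.19). Nckap1 was at 533.3 ± 35.3 CPM in AM6545 and 423.6 ± 45.0 CPM in Vehicle, a log2 fold change of 0.33 (edgeR adjusted p = 0.235). Wasf1, at 0.27, Abi1, at 0.31, and Abi2, at 0.24, had edgeR adjusted p-values of 0.338, 0.265 and 0.287. After correction for GC content and length Nckap1 was at 0.16, Abi1 at 0.14 and Abi2 at 0.12, and without Vehicle replicate B Wasf1 was at 0.15 and Abi1 at 0.20. For Abi1, 4.81% of exonic bases overlap Pdss1 on the opposite strand.

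Clathrin endocytosis genes, which include the partners of Sgip1 and the arrestins, were 15 higher and 6 lower of 21 tested (median 0.10). Of the 21, 9.52% had an unadjusted p under 0.05 (1 higher and 1 lower), against 14.6% of all genes. Eps15, an endocytic adaptor that binds Sgip1, was at 179.9 ± 8.96 CPM and 143.3 ± 19.7 CPM, a log2 fold change of 0.33 (edgeR adjusted p = 0.245), and 0.16 after correction for GC content and length. Ap2s1, the small subunit of the AP-2 adaptor, was at 159.7 ± 10.6 and 196.4 ± 27.5 CPM, a log2 fold change of -0.30 (edgeR adjusted p = 0.264), which was 0.05 after that correction and -0.18 without Vehicle replicate B.

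The 16 Gi/o subunits, through which CB1 signals, were 8 higher and 8 lower (median -0.01). At an unadjusted p under 0.05, 3 were higher (5.86% of all genes) and 2 lower (8.7% of all genes). Gnai3 was higher by a log2 fold change of 0.40 (43.9 ± 2.11 against 33.3 ± 3.86 CPM, edgeR adjusted p = 0.199) and Gnai1 by 0.33, and after correction for GC content and length these were 0.26 and 0.20. Gng13 was at 9.92 ± 0.53 CPM and 15.9 ± 4.35 CPM, a log2 fold change of -0.68 (edgeR adjusted p = 0.199), which was -0.17 after that correction and -0.43 without Vehicle replicate B. Exons of Chtf18 on the opposite strand overlap 51.6% of the exonic bases of Gng13, so its reads are uncertain. Gng2 was at 0.26, and Gm48283 overlaps 20.4% of its exonic bases. Gng3, the other lower subunit, was at -0.34 (edgeR adjusted p = 0.333) with overlapping groups, and exons of Bscl2 on the opposite strand overlap 24.2% of its exonic bases.

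All 6 channels under CB1 had log2 fold changes below 0 (median -0.12), as did 48.6% of all genes. At an unadjusted p under 0.05 were 2 of the 6, against 14.6% of all genes. Cacna1a, the pore of P/Q-type calcium channels, was at 29.6 ± 2.78 CPM in AM6545 and 39.6 ± 5.70 CPM in Vehicle, a log2 fold change of -0.42 (edgeR adjusted p = 0.212), and -0.28 from protein-coding transcripts alone. Cacna1b, the pore of N-type calcium channels, was at 18.0 ± 2.05 and 24.9 ± 8.55 CPM, a log2 fold change of -0.48 (edgeR adjusted p = 0.305), and -0.17 without Vehicle replicate B. Of 12 endocannabinoid enzymes 3 were higher and 9 lower (median -0.09), and 1 of the 12 (Mgll) had an unadjusted p under 0.05. Mgll, which encodes the lipase that degrades 2-arachidonoylglycerol, was at 242.6 ± 28.5 and 321.0 ± 61.4 CPM, a log2 fold change of -0.40 (edgeR adjusted p = 0.245), and -0.24 without Vehicle replicate B.

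Of 13 downstream kinases 8 were higher and 5 lower (median 0.11), and 2 of the 13 had an unadjusted p under 0.05, against 14.6% of all genes. Prkacb, a catalytic subunit of protein kinase A, had a log2 fold change of 0.34 (edgeR adjusted p = 0.245) and Mapk9, a Jun kinase, of 0.28 (edgeR adjusted p = 0.280), and after correction for GC content and length these were 0.21 and 0.16. Of 8 tested receptors reported in complexes with CB1, 3 were higher and 5 lower (median -0.04). Of the 8, 1 higher and 1 lower had an unadjusted p under 0.05. Htr2a, a serotonin receptor, was at 0.37 and Hcrtr1, an orexin receptor with 2.45 ± 0.25 CPM in AM6545 and 3.38 ± 0.50 CPM in Vehicle, at -0.46.

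**Figure D5:**
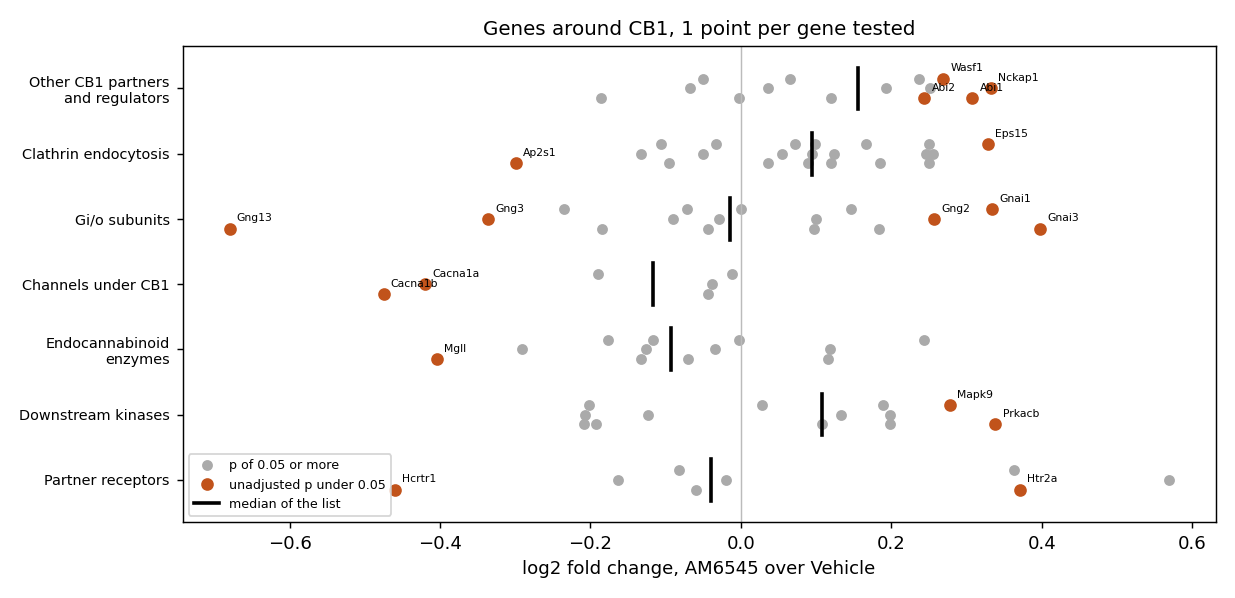
Log2 fold change of AM6545 over Vehicle (horizontal axis) for each tested gene of 7 lists around CB1 (vertical axis), with the list median as a bar; genes at an unadjusted p under 0.05 are named. No gene passed an adjusted p of 0.05, and the list medians lie between -0.12 and 0.16.

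Genes whose level ran most like that of Cnr1, Cnrip1, Sgip1 and Arrb2 over the 7 libraries are given as a description. All genes of a library share its depth and composition, and 9431 genes with a mean of at least 10 CPM were compared. For Cnr1 they were Tmem35a (Pearson r = 0.978, Spearman rho = 0.964), Lhx6 (0.978 and 0.964), Arxes1 (0.969 and 0.964), Lypd1 (0.960 and 1.0) and Commd8 (0.956 and 0.893). Without the 2 libraries farthest from the median of Cnr1, Vehicle replicates B and E, these r values lay between 0.918 and 0.995. The genes were picked by their r over these same 7 libraries, so this is not an independent check. The closest gene to Cnrip1 was Ube2a (r = 0.986), to Sgip1 Cyb5r4 (0.984) and to Arrb2 Alyref (0.967). Without the 2 libraries farthest from the median of each member, these were 0.972, 0.953 and 0.871. Among the 5 themselves the values lay between -0.67 (Sgip1 and Arrb2) and 0.60 (Cnrip1 and Sgip1), and Cnr1 correlated with Cnrip1 at 0.52.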

How the data were processed

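The authors deposited estimated counts per gene and per transcript, which are not scaled to a common total. The submitters' processing notes name Salmon 1.5.2 and the mm10 build, while which annotation was counted, and whether by strand, is not given in the sources used here. Symbols, lengths, exons and sequences came from GENCODE release M21 (GRCm38), which matched 22148 of 22248 genes by identifier without version. For 22135 of these the deposited identifier had a higher version, so lengths may differ from those used for counting. The 5 genes, the gene lists and the tests were chosen with earlier results of these data known. Counts were rounded and compared with edgeR 4.0.16 (R 4.3.3; TMM scaling, filterByExpr, robust quasi-likelihood fit, no covariates, all 7 libraries), with Benjamini-Hochberg adjustment over all features tested. Standard errors are the absolute fold change over the root of the F statistic. The code was tested on simulated counts, where most calls of the transcript-mix test were false, so that test is read here only for the genes it did not call. Transcripts were named where they took at least 5% of their gene, and list genes where the unadjusted p was under 0.05, at most 4 per list by smallest p. Alternatives were other scalings, DESeq2 1.42.0, limma-voom (limma 3.58.1), other filters, a block on the replicate letter, GC and length correction, other length scalings, and leaving out each library. The gene closest in level to Arrb1 is not reported here.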

Additional observations from a re-analysis of the deposited data

Results flagged for a closer look

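The share of Sgip1-212 among the counts of Sgip1 had 1 library far from the rest of its group. It was 44.4% in AM6545 replicate F, against 38.3% to 38.7% in the other 3 AM6545 libraries. Of 34 values checked this way in the 4 AM6545 libraries it was the 1 that stood out, and chance alone would give about 1 in 20, or 1.7 of 34, so 1 is no more than chance gives. The transcript holds sequence that also occurs in 33 other genes.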

How the results depend on the processing

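No setting brought any of the 5 genes, their transcripts or their transcript mix past an adjusted p of 0.05. Arrb1 stayed below 0 in all 19 alternatives (-0.38 to -0.13, adjusted p 0.0565 to 0.946). Arrb2 was at 0.0024 with total counts, 0.17 with limma-voom, 0.10 with GC and length correction and 0.11 with that correction and the replicate block, which also put Cnrip1 at -0.011, Sgip1 at -0.0028 and Ap2s1 at 0.038 (0.051 without the block). Leaving out single libraries gave ranges of -0.17 to 0.088 for Arrb2, -0.012 to 0.22 for Cnr1, -0.027 to 0.22 for Cnr1-201, -0.10 to 0.068 for Sgip1-212, -0.13 to 0.67 for Arrb2-211, -0.26 to 0.013 for Arrb2-204 and -0.043 to 0.35 for Arrb2-205, and, for the log2 differences in ratio, -0.075 to 0.086 for Cnrip1/Cnr1 and -0.19 to 0.089 for Sgip1/Cnr1. That of Sgip1/Cnr1 was 0.056 from gene counts over mean transcript length and 0.19 from protein-coding transcripts, and that of Cnrip1/Cnr1 was -0.018 with the replicate block. Effective lengths gave TPM means of 29.8 and 25.5 for Cnr1 (AM6545, Vehicle), 164.6 and 138.4 for Cnrip1, 13.5 and 14.5 for Arrb1 and 53.5 for Sgip1 in AM6545. Protein-coding transcripts alone gave 26.1 and 19.99 for Sgip1, and in AM6545 16.9 for Arrb1 and 38.7 for Arrb2. The causes were not tested.

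The list genes past an adjusted p of 0.05 numbered 0 in edgeR, 1 in DESeq2 (Gng13), 2 in limma-voom (Eps15 and Htr2a) and 0 to 9 with single libraries left out, 9 without Vehicle replicate E. Of all genes, 1 passed in edgeR, 205 in DESeq2, 394 in limma-voom and 944 without Vehicle replicate E. Of all transcripts, 6 passed in edgeR and 431 in DESeq2.

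Libraries with the same replicate letter did not deviate together (correlations -0.255, -0.130 and -0.180), so the letters were not taken to pair them. With the replicate block 1 gene, 0 transcripts and 73 genes by transcript mix passed, against 1, 6 and 63 without it, and none of the 5 genes was among them. With 4 and 3 libraries, the interval for Cnr1 ran from -0.19 to 0.34.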
